A study of Mus musculus with 17 samples.

Results

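The 8 genes Marco, Pparg, Fabp1, Krt79, Ear1, Ear2, Chil3 and Bhlhe41 are used as markers of the resident alveolar macrophages of the mouse lung, and their levels were followed in irradiated and non-irradiated lungs. They were taken by symbol from a table of 45777 genes, and all 8 were among the 22052 genes with enough counts to be tested. The genes were selected on their measured levels and fold changes between the groups of these 17 libraries. Their fold changes, and the calls that mark which of them passed limits on size and adjusted p, are therefore a description drawn from that selection and support nothing beyond these libraries.

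Alveolar macrophages lie on the airspace side of the alveoli, where they take up inhaled particles and used surfactant. They arise from fetal monocytes and renew themselves in place, and monocytes recruited after injury can take on part of their expression pattern. Their identity depends on GM-CSF and TGF-β, which maintain PPARγ (the product of Pparg), a nuclear receptor that controls lipid handling. Bhlhe41 and its paralogue Bhlhe40 encode transcriptional repressors that are needed for the identity and self-renewal of these cells, and both are also known as clock-controlled genes.

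The libraries came from wild-type male C57BL/6 mice that were obtained at 6 weeks of age and left to adapt before the treatment. One group at each time received no radiation, and the others received 65 Gy or 75 Gy to the left lung in 1 fraction from an image-guided irradiator. Lungs were collected after 2 or 6 weeks, and RNA of irradiated mice was taken from the lesion. There were 3 libraries in each of the 6 groups except for 65 Gy at 6 weeks, which had 2, and which lobe the control RNA came from was not given in the sources used here. The controls and the irradiated mice shared strain, sex, genotype and age at arrival. The methods describe anesthesia with ketamine and xylazine without naming the mice that received it. Between 46764569 and 66797879 reads were counted per library (median 57608149), so that 3 counts were worth between 0.0449 and 0.0642 CPM (counts scaled to the library total). Levels are given in CPM after TMM scaling, and the labels do not say that each library is a different mouse, so the errors measure the spread between libraries. In these RNA pools of whole tissue, fewer alveolar macrophages and less RNA per macrophage cannot be told apart. The control library 3126 of 2 weeks stood above the other 2 controls of that time in Chil3, Ear1, Ear2 and Fabp1. The 75 Gy library 3132 of 2 weeks stood above its group in Fabp1, Ear1 and Krt79. Values without these libraries are given below for Chil3, Ear2 and Fabp1, and not for Ear1 or Krt79.

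Ear1 and Ear2 are shown first because their promoters are almost the same while their levels parted after irradiation. Both encode eosinophil-associated ribonucleases of the RNase A superfamily. In GRCm38.p6, Ear1 (gene identifier 13586) is at chr14:43818765-43819639 on the minus strand and Ear2 (13587) at chr14:44102654-44103531 on the plus strand. The 250 bases before the RefSeq start of Ear1 (chr14:43819640-43819889, minus strand) and of Ear2 (chr14:44102404-44102653, plus strand) were identical in 246 of 248 aligned bases (99.2%), and the 2 differing bases are in capitals.
Ear1: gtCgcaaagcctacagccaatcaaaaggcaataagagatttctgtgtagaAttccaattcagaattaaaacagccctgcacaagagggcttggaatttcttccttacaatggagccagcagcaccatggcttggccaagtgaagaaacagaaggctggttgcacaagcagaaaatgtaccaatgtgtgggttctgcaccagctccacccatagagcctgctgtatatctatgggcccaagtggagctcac
Ear2: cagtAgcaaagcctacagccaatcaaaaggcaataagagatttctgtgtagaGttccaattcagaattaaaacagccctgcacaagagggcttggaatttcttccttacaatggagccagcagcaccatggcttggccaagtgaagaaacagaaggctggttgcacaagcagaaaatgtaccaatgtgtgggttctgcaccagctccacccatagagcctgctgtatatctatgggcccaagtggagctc
The longest coding GENCODE transcripts of both genes matched in 690 of 713 aligned bases (96.8%). Of the windows of 100 bases in the Ear1 transcript, 23.9% were also found in another annotated gene, and for Ear2 and Chil3 the share was 13.9% and 5.42%. The counts of these 3 genes are uncertain by an amount that was not measured, since reads from such windows could have been assigned to a copy. The other 5 genes had no window in common with another gene.

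The promoters of Fabp1 and Bhlhe41 are shown because each held a motif of a regulator named above. Fabp1 (14080), the gene of the liver-type fatty acid-binding protein, is at chr6:71199879-71205034 on the plus strand, and the 250 bases before it (chr6:71199629-71199878) held a direct repeat of the kind that PPARγ binds together with RXR, in capitals. Bhlhe41 (79362) is at chr6:145858243-145865420 on the minus strand, and the 250 bases before it (chr6:145865421-145865670) held an E-box, in capitals, the element to which BHLHE40, BHLHE41 and the clock factors bind.
Fabp1: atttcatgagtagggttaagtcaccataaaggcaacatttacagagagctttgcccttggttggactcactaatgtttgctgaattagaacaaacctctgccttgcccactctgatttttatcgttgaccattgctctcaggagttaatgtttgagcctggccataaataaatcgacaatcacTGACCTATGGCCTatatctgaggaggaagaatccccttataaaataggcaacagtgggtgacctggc
Bhlhe41: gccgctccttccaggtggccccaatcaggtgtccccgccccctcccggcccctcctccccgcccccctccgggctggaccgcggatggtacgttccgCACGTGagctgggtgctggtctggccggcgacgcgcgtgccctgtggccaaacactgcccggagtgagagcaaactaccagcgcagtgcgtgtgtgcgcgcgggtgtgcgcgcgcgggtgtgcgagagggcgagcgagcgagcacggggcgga
The repeat was searched on both strands as AGGNCA and AGGTCA with 1 base between them, and it lay 67 to 55 bases before the start of Fabp1, on the minus strand. Its letters were set after the Fabp1 promoter had been read, and it was found in 23 of 27025 gene promoters (0.0851%). The E-box CACGTG lay 153 to 148 bases before the start of Bhlhe41 and was found in 1634 promoters (6.05%). GAGGAAG, the core of the PU.1 site, was found in 2807 promoters (10.4%), among them those of Marco and Fabp1, and TATAAA in 3504 (13%), among them that of Fabp1 and 1 of the 3 promoters of Pparg. These are matches of letters within 250 bases and not sites shown to be bound, and none of the 4 motifs was in the promoters of Ear1, Ear2, Chil3 or Krt79.

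Levels can be compared between genes only per kilobase, here of all annotated exons of a gene joined. On that scale the secreted proteins were highest in the controls. At 2 weeks Chil3 had a mean of 309.6 CPM per kilobase and Ear2 137.1, followed by Ear1 with 36.8, Fabp1 with 19.3 and Marco with 9.19. Krt79 (3.99) and Pparg (3.94) were next to each other, and Bhlhe41 was lowest with 1.20. In the controls of 6 weeks Chil3 (201.4) and Ear2 (102.5) were again the highest, and Krt79 (3.28) was the lowest, below Marco (4.37), Pparg (4.23) and Bhlhe41 (4.58). Marco, Pparg and Bhlhe41 differed from each other by less than the spread of the Marco libraries. The joined exons of Krt79 had 4753 bases and its longest coding transcript 2097, and those of Pparg had 2953 and 2125. The order of Krt79 among the lower genes therefore depends on the length used, and its low place is not a finding.

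The name of the group was set beside other markers of these cells. Siglecf, the surface lectin that defines alveolar macrophages in the mouse, was measured in every library, at 13.1 to 18.2 CPM in the 6 controls. Car4, Itgax and Mrc1 were measured in every library as well. In RNA of whole lung, such detection does not show which cells made these transcripts. Eosinophils share Siglecf and the Ear genes with alveolar macrophages. Of the other 5 genes on the eosinophil list, over all 17 libraries, Epx reached 0.88 CPM, Prg2 2.85 CPM, Il5ra 2.98 CPM, Ccr3 4.20 CPM and Alox15 5.35 CPM. Prg2, a granule protein gene, had 2.16, 0.14 and 0 CPM in the controls of 6 weeks and 1.02 to 2.85 CPM in the irradiated libraries of that time, which overlapped. The part of eosinophils in the Ear values was not tested. Chil3 is also expressed by classical monocytes and Ear2 by nonclassical monocytes, so neither marks alveolar macrophages alone, and Pparg is also expressed by adipocytes.

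**Figure D1:**
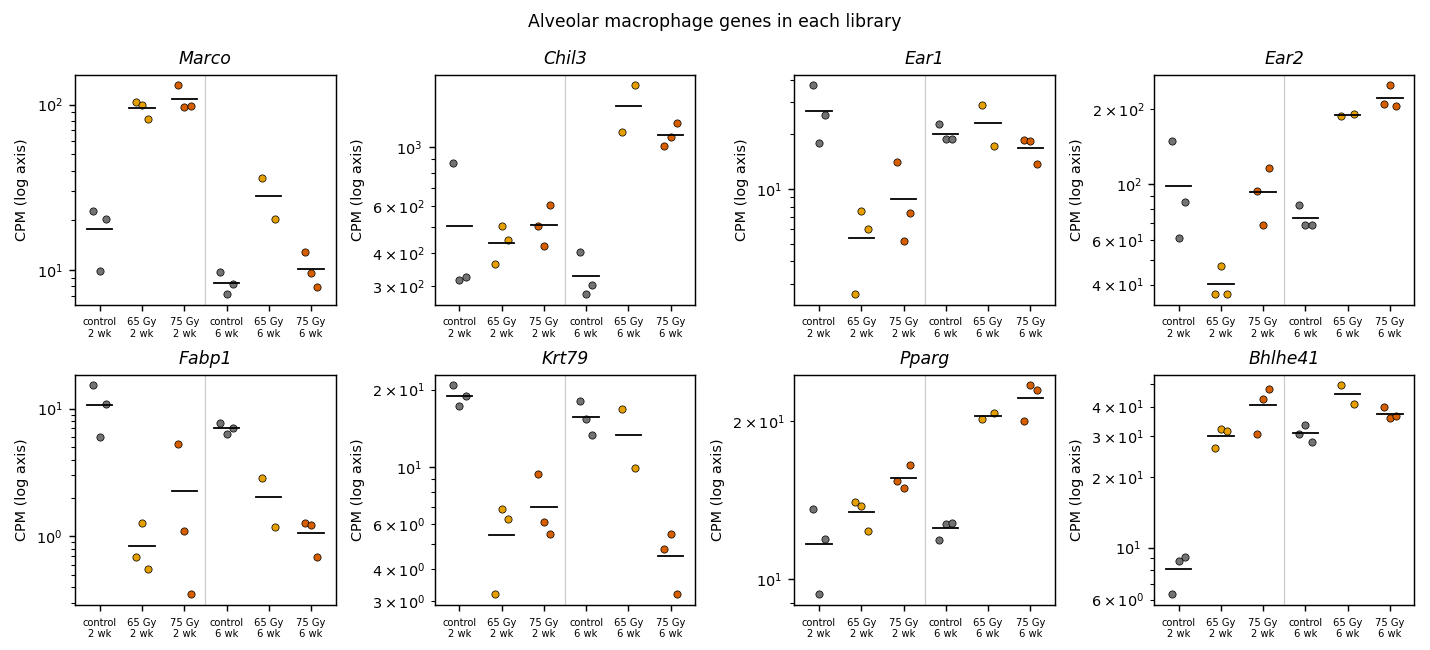
Level of each of the 8 genes in every library, in CPM after TMM scaling on a log axis, with 1 point per library and a bar at the group mean. Marco at 2 weeks sits at 81.7 to 131.5 CPM in the irradiated libraries against 9.89 to 22.9 in the controls, while Fabp1, Krt79 and Ear1 are lower and Ear2 and Chil3 are high only at 6 weeks.

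The 8 genes did not move as a block. The limits for a call were an adjusted p of 0.05 (edgeR's quasi-likelihood test, adjusted after Benjamini and Hochberg over all 22052 genes) and a log2 fold change of 1 up or down. After 75 Gy, 5 of the 8 genes were called at 2 weeks, 2 higher and 3 lower, where 7.74% of all genes were called (5.67% higher and 2.07% lower). At 6 weeks 4 were called, 2 higher and 2 lower, beside 10.4% of all genes (7.28% higher and 3.13% lower). After 65 Gy, 6 were called at 2 weeks, 2 higher and 4 lower, beside 4.35% of all genes (3.47% higher and 0.88% lower), and 3 were called at 6 weeks, all higher, beside 5.28% (4.34% higher and 0.943% lower). With only the groups compared in the fit, the count after 75 Gy at 2 weeks was 3, with Fabp1 and Ear1 lost, and that after 65 Gy at 6 weeks was 4, with Fabp1 gained. Nothing is read from these counts, since the genes were picked with the changes known. The same shares of all genes belong beside the counts of the other lists below. The median log2 change of the 8 genes was -0.03 for 75 Gy at 2 weeks, 0.27 for 75 Gy at 6 weeks, -0.75 for 65 Gy at 2 weeks and 0.63 for 65 Gy at 6 weeks, and that of all genes lay between -0.0085 and 0.040.

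**Figure D2:**
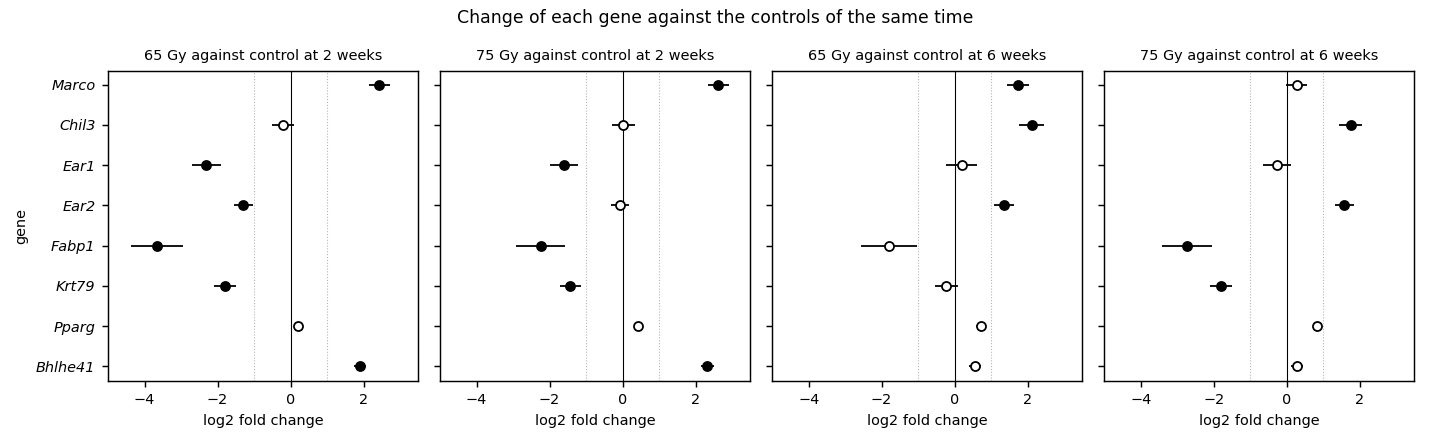
Log2 fold change of each gene against the controls of the same time, for both doses and times, with standard errors as bars, filled points for called genes and dotted lines at -1 and 1. Marco and Bhlhe41 lie to the right at 2 weeks and Ear2 and Chil3 at 6 weeks, and Fabp1 and Krt79 lie to the left as called genes in 3 of 4 comparisons each.

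Pparg, the nuclear receptor gene, was not called in any comparison, but its groups separated at 6 weeks. Pparg (19016) is at chr6:115360879-115490404 on the plus strand. Of the libraries of 2 weeks, the controls had 13.6, 9.34 and 11.9 CPM, the 65 Gy libraries 14.0, 13.8 and 12.4 CPM and the 75 Gy libraries 15.4, 14.9 and 16.5 CPM. The 75 Gy group lay above the controls, and the 65 Gy group overlapped them. The controls of 6 weeks had 11.9, 12.7 and 12.8 CPM, against 20.2 and 20.7 CPM after 65 Gy and 20.0, 23.4 and 23.0 CPM after 75 Gy. Every irradiated library of 6 weeks was above every control, with log2 changes of 0.71 (SE 0.13) after 65 Gy and 0.83 (SE 0.12) after 75 Gy that stayed under the fold limit. At 2 weeks the changes were 0.20 (SE 0.12) and 0.42 (SE 0.12). The summed level of 8 adipocyte genes at 2 weeks was 85.8 to 91.7 CPM in the controls, 13.2 to 174.9 CPM after 65 Gy and 5.5 to 27.4 CPM after 75 Gy. Their sum at 6 weeks was 24.2 to 129.2 CPM in the controls, 50.3 to 65.2 CPM after 65 Gy and 87.9 to 113.8 CPM after 75 Gy. After 75 Gy at 6 weeks all 8 had log2 changes above 0, between 0.17 and 1.17 with a median of 0.88, and after 65 Gy the median was -0.11. None of these 8 genes passed the limits at 6 weeks, and the part of fat in the Pparg values was not tested.

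Bhlhe41 rose at 2 weeks after both doses, and it was also the member that differed most between the controls of both times. The controls of 2 weeks had 6.31, 8.74 and 9.15 CPM, the 65 Gy libraries 26.7, 32.0 and 31.4 CPM and the 75 Gy libraries 30.7, 43.2 and 47.6 CPM. All 6 irradiated libraries were above the 3 controls, by 1.90 (SE 0.17) on the log2 scale after 65 Gy and 2.33 (SE 0.17) after 75 Gy. At 6 weeks the controls themselves had 30.7, 33.3 and 28.2 CPM, the 65 Gy libraries 49.4 and 41.0 CPM and the 75 Gy libraries 39.8, 35.8 and 36.4 CPM. The irradiated libraries of 6 weeks were again all above the controls of their time, but only by 0.56 (SE 0.17) and 0.28 (SE 0.16), and neither change was called.

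The controls of 6 weeks exceeded those of 2 weeks in Bhlhe41 by 1.93 on the log2 scale (SE 0.17), the only member called in that comparison, in which 0.576% of all genes were. Of 10 clock genes, 5 rose and 1 fell between the same controls, with a median log2 change of 1.30. Dbp, a clock output gene, rose by 3.32 (SE 0.49, adjusted p = 0.00381 in edgeR, and 0.0714 with only the controls in the fit), from 4.87, 13.8 and 28.9 CPM to 158.6, 174.5 and 142.6 CPM. Arntl, which encodes the clock activator BMAL1, fell by 2.40 (SE 0.13, adjusted p = 1.87e-07 in edgeR), from 36.8, 42.8 and 33.7 CPM to 6.75, 7.20 and 7.59 CPM. Dbp and Arntl were picked after their values were seen. No hour of collection was given in the sources used here. The parts of the clock and of age at collection in the Bhlhe41 values were not tested. The paralogue Bhlhe40 rose at 2 weeks by 1.07 (SE 0.17, adjusted p = 0.000999) after 65 Gy and by 1.14 (SE 0.17, adjusted p = 0.000348) after 75 Gy. Without control library 3126 these were 0.89 and 0.97, under the fold limit, as were the changes of 6 weeks, 0.77 and 0.75. Bhlhe40 had 48.3 to 78.2 CPM in the controls of 2 weeks and 82.8 to 93.9 CPM in those of 6 weeks.

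**Figure D3:**
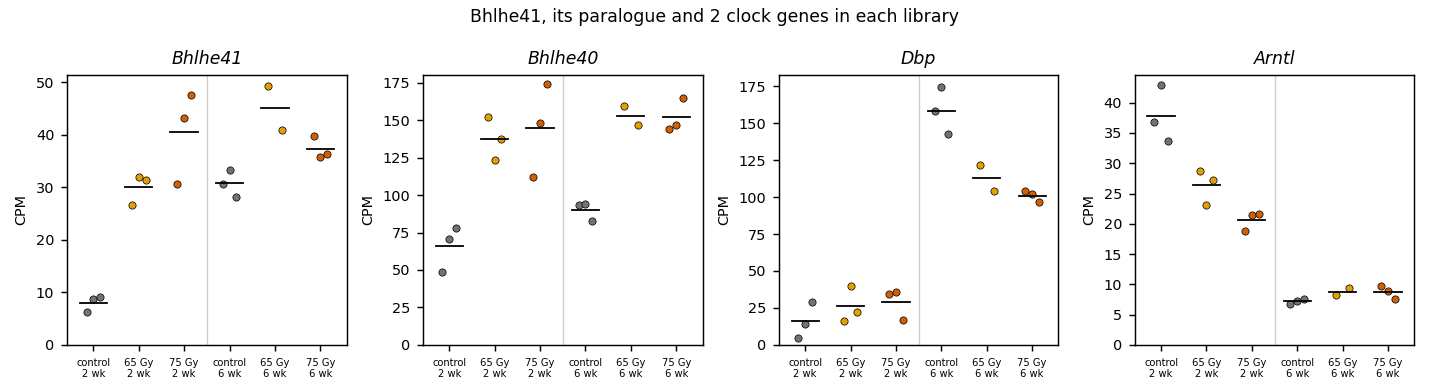
CPM of Bhlhe41, Bhlhe40, Dbp and Arntl in each library, with bars at the group means and axes from 0. The controls of 6 weeks are above those of 2 weeks in Bhlhe41 (28.2 to 33.3 against 6.31 to 9.15 CPM) and in Dbp, and below them in Arntl.

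Marco, a class A scavenger receptor that binds bacteria and inhaled particles, was the member that rose most at 2 weeks. Marco (17167) is at chr1:120474538-120505024 on the minus strand. The controls of 2 weeks had 22.9, 9.89 and 20.3 CPM, the 65 Gy libraries 104.0, 99.9 and 81.7 CPM and the 75 Gy libraries 131.5, 97.1 and 98.0 CPM. Both doses lay well above the controls without overlap, by 2.43 (SE 0.29) on the log2 scale after 65 Gy and 2.62 (SE 0.29) after 75 Gy, or 5.38-fold and 6.15-fold. The controls of 6 weeks had 9.81, 7.17 and 8.26 CPM, the 65 Gy libraries 35.8 and 20.3 CPM and the 75 Gy libraries 12.9, 9.59 and 7.91 CPM. The 75 Gy libraries overlapped the controls (log2 change 0.27, SE 0.28), while both 65 Gy libraries were above them (1.74, SE 0.31). That call rests on 2 libraries, and without library 3138 the change was 1.28 and not called. Between the doses at 6 weeks, the 75 Gy libraries were below those of 65 Gy by 1.47 (SE 0.31), which was not called.

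The other scavenger receptors were followed with a list of 10 genes, of which 2 rose and 1 fell at 2 weeks after either dose, and 3 rose at 6 weeks after either dose. Msr1, another class A receptor, rose by 4.05 (SE 0.35, adjusted p = 4.26e-06) after 75 Gy at 2 weeks and by 3.64 (SE 0.34, adjusted p = 6.19e-06) at 6 weeks. After 75 Gy it was at 48.9 to 116.7 CPM at 2 weeks and 44.2 to 50.2 CPM at 6 weeks, when Marco overlapped the controls. Cd36, the receptor for oxidised lipids, fell after 65 Gy at 2 weeks by 1.11 (SE 0.26, adjusted p = 0.0150), but by 0.75 and uncalled without control library 3126, and Olr1 rose in all 4 comparisons.

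Ear1 fell at 2 weeks and was back within the range of the controls or near it at 6 weeks. The controls of 2 weeks had 37.3, 17.9 and 25.5 CPM, the 65 Gy libraries 2.65, 7.56 and 6.04 CPM and the 75 Gy libraries 14.0, 5.17 and 7.35 CPM. No irradiated library of 2 weeks reached the lowest control, and the log2 changes were -2.31 (SE 0.40) after 65 Gy and -1.60 (SE 0.39) after 75 Gy. The 75 Gy call of Ear1 was lost with only the groups compared in the fit. In the 6-week set the controls had 22.9, 18.9 and 18.9 CPM, the 65 Gy libraries 29.0 and 17.3 CPM and the 75 Gy libraries 18.6, 18.4 and 13.7 CPM. The changes at 6 weeks, 0.20 (SE 0.42) and -0.26 (SE 0.38), were within the spread, although the 75 Gy libraries were all slightly below the controls.

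Ear2 had another course, with a fall at 2 weeks after 65 Gy alone and a rise at 6 weeks after both doses. Of the 2-week libraries, the controls had 149.0, 61.5 and 85.2 CPM, the 65 Gy libraries 36.6, 47.3 and 36.7 CPM and the 75 Gy libraries 94.2, 69.3 and 116.7 CPM. The 65 Gy libraries were below every control (-1.29, SE 0.25), and the 75 Gy libraries overlapped them (-0.08, SE 0.25). Without control library 3126 the 65 Gy change was -0.86, under the fold limit, and the 75 Gy change was 0.36. Their 6-week counterparts had 82.8, 69.2 and 69.1 CPM, against 186.9 and 189.8 CPM after 65 Gy and 209.4, 248.5 and 204.2 CPM after 75 Gy. All 5 irradiated libraries of 6 weeks were more than 2-fold above the highest control, and the log2 changes were 1.35 (SE 0.27) and 1.58 (SE 0.25). At 2 weeks the 75 Gy libraries were above the 65 Gy libraries by 1.22 (SE 0.25), which was not called.

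The counts of Ear2 per count of Ear1 separated the irradiated libraries from the controls at both times. The ratio was 3.99, 3.44 and 3.35 in the 2-week controls and 3.62, 3.66 and 3.66 in the 6-week controls. It reached 13.8, 6.25 and 6.08 after 65 Gy and 6.71, 13.4 and 15.9 after 75 Gy at 2 weeks. At 6 weeks it was 6.43 and 11 after 65 Gy and 11.3, 13.5 and 14.9 after 75 Gy. All 11 irradiated libraries were above all 6 controls, and a ratio within a library does not depend on its scaling. The ratio shows unequal change of both genes and not which of them changed, it was formed after the values had been seen, and reads shared with copies enter both counts.

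**Figure D4:**
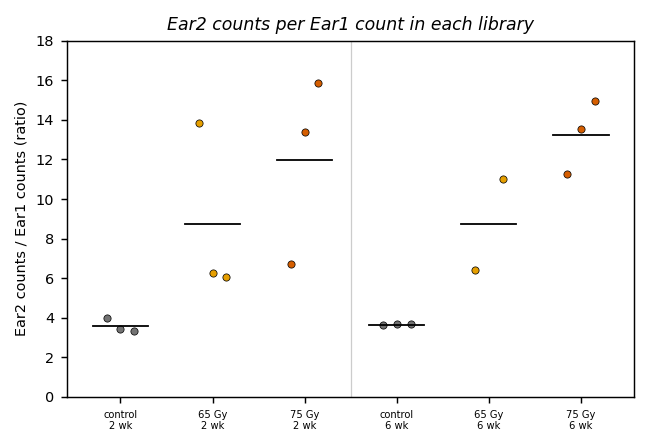
Counts of Ear2 divided by counts of Ear1 in each library, with bars at the group means. The 6 controls lie between 3.35 and 3.99, and the 11 irradiated libraries between 6.08 and 15.9.

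Of 10 other genes of the Ear family, 5 were in the table and 4 were tested. All 4 rose after 75 Gy at 6 weeks, and 3 after 65 Gy at 6 weeks, whereas 2 rose after either dose at 2 weeks. Among all genes, 7.28% and 4.34% rose at 6 weeks after 75 Gy and 65 Gy, and 5.67% and 3.47% at 2 weeks. Ear10, which shares windows with Ear1 and with Ear2, followed Ear2, with 0.69 to 1.75 CPM in the controls of 2 weeks, 0.42 to 0.52 CPM after 65 Gy and 0.99 to 1.58 CPM after 75 Gy. The mean of Ear10 was 1.22 CPM beside 98.6 CPM of Ear2 in the controls of 2 weeks, and 0.475 beside 40.2 CPM after 65 Gy. After 75 Gy at 6 weeks it was 2.80 beside 220.7 CPM, and the part of Ear2 reads in the Ear10 counts was not tested. Ear10 fell by 1.36 (SE 0.31, adjusted p = 0.0119) after 65 Gy at 2 weeks. It rose at 6 weeks by 1.20 (SE 0.32, adjusted p = 0.0213) after 65 Gy and, with a smaller error, by 1.43 (SE 0.29, adjusted p = 0.00178) after 75 Gy. Both calls of Ear10 after 65 Gy were lost without 1 library (3129 at 2 weeks, and 3136, 3137, 3138 or 3140 at 6 weeks, with adjusted p of 0.0555 to 0.118). Ear6 rose most at 2 weeks after 75 Gy, from 0.10 to 0.57 CPM in the controls to 3.03 to 3.46 CPM (3.5, SE 0.64, adjusted p = 0.00146), while its calls after 65 Gy at 2 weeks and 75 Gy at 6 weeks were lost without 1 of several libraries (adjusted p of 0.0734 to 0.171). Rnase2a and Rnase2b were near 0 in the controls of 6 weeks, where all controls had 0.0324 CPM or less, and had 0.13 to 1.40 CPM and 0.62 to 1.38 CPM in the irradiated libraries of 6 weeks. No fold is given for them, since most of those controls had no count.

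Chil3 encodes Ym1, a secreted chitinase-like lectin, and it had the highest level of the 8 genes in every group per kilobase. Chil3 (12655) is at chr3:106147554-106167564 on the minus strand. The controls of 2 weeks had 873.1, 317.5 and 325.2 CPM, the 65 Gy libraries 362.7, 503.3 and 446.6 CPM and the 75 Gy libraries 503.7, 424.7 and 605.2 CPM. Library 3126 alone was above every irradiated library of 2 weeks and the other 2 controls were below them, so that the changes of -0.21 (SE 0.31) and 0.02 (SE 0.31) became 0.45 and 0.68 without it, and neither was called. By 6 weeks the controls had 402.1, 280.5 and 303.6 CPM, against 1141 and 1704 CPM after 65 Gy and 1003, 1086 and 1229 CPM after 75 Gy. Every irradiated library of 6 weeks was above every control, by 2.11 (SE 0.35) on the log2 scale after 65 Gy and 1.75 (SE 0.32) after 75 Gy, or 4.33-fold and 3.36-fold.

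Chil3 is also on a list of 8 classical monocyte genes and Ear2 on a list of 7 nonclassical monocyte genes, and both lists are given here without them, an alternative chosen after the values were seen. The other 7 classical monocyte genes summed to 221.8 to 310.4 CPM in the controls of 6 weeks, 278.8 to 298.1 CPM after 65 Gy and 304.6 to 387.0 CPM after 75 Gy, and these ranges overlapped. Of the 7, Ccr2 and F10 rose at 6 weeks after both doses and at 2 weeks after 75 Gy, and none was called after 65 Gy at 2 weeks. Ccr2, the chemokine receptor of these monocytes, had 32.6 to 49.4 CPM in the controls of 6 weeks and 96.3 to 176.7 CPM in the irradiated libraries, and its 65 Gy call was lost without library 3140 (log2 change 1.31, adjusted p = 0.0752 in edgeR). Of the other 6 nonclassical monocyte genes none rose. Nr4a1 fell after 75 Gy at 2 weeks and Ace and Cd300e at 6 weeks. The 6 genes summed to 1505 to 1611 CPM in the controls of 6 weeks and to 633.4 to 1160 CPM in the irradiated libraries. Ace alone had 1298 to 1380 CPM in those controls, 716 to 830 CPM after 65 Gy and 457 to 650 CPM after 75 Gy. That sum is thus mostly the level of Ace. The 65 Gy call of F10 was lost without any 1 of the 5 libraries compared, that of Nr4a1 without library 3126 (-0.999) and that of Cd300e without library 3135 (-1.05) or 3143 (-0.93). The part of monocytes in the levels of Chil3 and Ear2 was not tested.

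Of 6 other chitinase-like genes, Chil4 is the one whose transcript shares windows with Chil3. Chil4 fell at 2 weeks by 1.99 (SE 0.56, adjusted p = 0.0336) after 65 Gy and by 1.62 (SE 0.55, adjusted p = 0.0456) after 75 Gy. The groups overlapped, and control library 3127 had 39.7 CPM where the remaining controls had 11.4 and 3.64 CPM. Without it both calls were lost and the changes were -0.71 and -0.34. Chil4 rose at 6 weeks by 2.20 (SE 0.60, adjusted p = 0.0249) after 65 Gy and, more narrowly, by 1.95 (SE 0.56, adjusted p = 0.0142) after 75 Gy, calls lost without 3136 or 3137, from 2.96 to 4.93 CPM in the controls to 10.8 to 19.3 CPM in the irradiated libraries. The mean of Chil4 at 6 weeks was 3.72 CPM in the controls, 17.1 CPM after 65 Gy and 14.4 CPM after 75 Gy. Those of Chil3 were 328.7, 1422 and 1106 CPM, and the part of Chil3 reads in the Chil4 counts was not tested. Chil1, which encodes a lectin made by macrophages and epithelium, rose in all 4 comparisons by 1.09 to 1.41, and by 0.95 and 0.96 at 2 weeks without library 3127. The list held 2 higher and 2 lower genes after 75 Gy at 2 weeks, 3 higher and 1 lower at 6 weeks, 1 of each after 65 Gy at 2 weeks and 3 higher at 6 weeks.

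Fabp1 showed the largest fall of the 8 genes. In the 2-week set the controls had 15.2, 6.02 and 10.8 CPM, the 65 Gy libraries 0.69, 1.28 and 0.55 CPM and the 75 Gy libraries 5.32, 1.11 and 0.35 CPM. Every irradiated library of 2 weeks was below every control, by 3.65 (SE 0.72) on the log2 scale after 65 Gy, or 12.6-fold, and by 2.24 (SE 0.66) after 75 Gy, or 4.74-fold. Library 3132 stood apart in the 75 Gy group, and without it Fabp1 fell by 3.86. The 75 Gy call was lost without library 3126 (-1.88), 3128 (-2.24), 3133 (-1.91) or 3134 (-1.74), or with only the groups compared in the fit (-2.23). The 6-week controls had 7.78, 6.29 and 7.05 CPM, against 2.87 and 1.18 CPM after 65 Gy and 1.26, 1.22 and 0.69 CPM after 75 Gy. All 5 irradiated libraries were below the controls, by -2.73 (SE 0.69) after 75 Gy, which was called, and -1.80 (SE 0.76) after 65 Gy, which was not called.

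The other fatty acid-binding proteins did not fall with Fabp1. Of 9 genes of that family 6 were tested, none fell, and 1 rose after either dose at 2 weeks, 3 after 75 Gy and 2 after 65 Gy at 6 weeks. Fabp5, the form that is abundant in macrophages, rose by 1.28 to 1.74 in all 4 comparisons, from 75.8 to 122.6 CPM in the 6 controls to 177.6 to 405.7 CPM in the 11 irradiated libraries. Fabp4, expressed by macrophages, capillaries and adipocytes, rose after 75 Gy at 6 weeks by 1.88 (SE 0.54, adjusted p = 0.0136), from 6.95 to 23.9 CPM to 41.9 to 52.6 CPM, a call lost without control library 3135 or 3136 (adjusted p = 0.0602 each). Its other 3 changes were between 0.38 and 1.22 and were not called.

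Krt79 encodes a keratin that is used as a marker of mouse alveolar macrophages and is otherwise known from skin. Krt79 (223917) is at chr15:101929332-101940324 on the minus strand. For Krt79 the 2-week controls had 20.8, 17.2 and 18.9 CPM, the 65 Gy libraries 3.20, 6.88 and 6.29 CPM and the 75 Gy libraries 9.44, 6.12 and 5.5 CPM. The groups did not overlap, and the falls were 1.80 (SE 0.29) after 65 Gy and 1.43 (SE 0.29) after 75 Gy. The 6-week controls had 18.1, 15.4 and 13.4 CPM, the 65 Gy libraries 16.8 and 9.88 CPM and the 75 Gy libraries 4.81, 5.47 and 3.21 CPM. Only the 75 Gy libraries were still below the controls (-1.79, SE 0.29), while the 65 Gy libraries overlapped them (-0.23, SE 0.32). Krt79 was 1.57 lower on the log2 scale (SE 0.32) after 75 Gy than after 65 Gy at 6 weeks without being called. Of 6 genes of skin and sebaceous gland none fell, and 1 rose in 3 of the comparisons with controls and 2 after 65 Gy at 6 weeks, among them Awat1, which was at 0.05 CPM or less in the controls.

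Between the doses, no gene of the 22052 was called by edgeR at either time, so that the share was 0% and none of the 8 genes was called. An unadjusted p under 0.05 was found for 1570 genes at 2 weeks and 1431 at 6 weeks. DESeq2 called 7 genes at 2 weeks, among them Ear2, and 14 at 6 weeks, among them Marco and Krt79.

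The effect of the radiation at 6 weeks was compared with that at 2 weeks by the difference between both log2 changes. For 75 Gy, 56 genes (0.254%) were called (0.213% higher and 0.0408% lower), among them Marco, whose effect was lower at 6 weeks by 2.35 (SE 0.40), and Bhlhe41, lower by 2.05 (SE 0.23). The control mean of Bhlhe41 was 8.07 CPM ± 1.53 (SD, n = 3) at 2 weeks and 30.7 CPM ± 2.57 (SD, n = 3) at 6 weeks, while its 75 Gy mean was 40.5 CPM ± 8.76 (SD, n = 3) at 2 weeks and 37.3 CPM ± 2.20 (SD, n = 3) at 6 weeks. For Marco the 75 Gy mean was 108.9 CPM ± 19.6 (SD, n = 3) at 2 weeks and 10.1 CPM ± 2.55 (SD, n = 3) at 6 weeks, where the controls had 17.7 CPM ± 6.87 (SD, n = 3) and 8.41 CPM ± 1.33 (SD, n = 3). For 65 Gy, 3 genes (0.0136%) were called, and Ear2 was one of them, with an effect higher by 2.65 (SE 0.37) at 6 weeks. Ear1 (2.51, SE 0.57) and Chil3 (2.32, SE 0.47) had differences of like size after 65 Gy and were not called. After 75 Gy the differences of Ear2 (1.66, SE 0.35) and Chil3 (1.73, SE 0.44) were not called either.

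Of 22 other genes of alveolar macrophages, all tested, more rose than fell in every comparison with controls, as among all genes. After 75 Gy, 5.67% of all genes were higher and 2.07% lower at 2 weeks, and 7.28% higher and 3.13% lower at 6 weeks. After 65 Gy these shares were 3.47% and 0.88% at 2 weeks and 4.34% and 0.943% at 6 weeks. In this list 9 rose and 1 fell after 75 Gy at 2 weeks, 9 rose at 6 weeks, and after 65 Gy 7 rose at 2 weeks and 9 at 6 weeks. The medians were between 0.67 and 0.79 on the log2 scale. Ctsk, the cysteine protease cathepsin K, rose most, by 2.55 to 2.94, from 15.6 to 22.1 CPM in the controls to 95.8 to 150.6 CPM in the irradiated libraries. Atp6v0d2, a subunit of the vacuolar proton pump, rose by 1.33 to 2.27, and Itgax, the integrin CD11c, by 1.15 to 1.74. Mrc1, the mannose receptor, rose at 6 weeks after 65 Gy by 1.34 (SE 0.14, adjusted p = 4.29e-05) and after 75 Gy by 1.62 (SE 0.13, adjusted p = 1.98e-06), and its changes at 2 weeks were 0.69 and 0.87.

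Siglecf and Car4, a carbonic anhydrase, were not called in any comparison with controls. Siglecf had 13.1 to 18.2 CPM in the controls of 2 weeks, 7.81 to 14.6 CPM in the irradiated libraries of 2 weeks, 13.5 to 16.7 CPM in the controls of 6 weeks and 12.9 to 19.7 CPM in the irradiated libraries of 6 weeks. Its log2 changes were -0.51 (SE 0.22) and -0.31 (SE 0.22) at 2 weeks and 0.29 (SE 0.24) and 0.06 (SE 0.22) at 6 weeks after 65 Gy and 75 Gy, and the groups overlapped each time. The lowest Siglecf level was thus at 2 weeks, the time at which Ear1 was lowest as well. Car4 had a change of -0.79 (SE 0.25, adjusted p = 0.0238) after 75 Gy at 6 weeks, under the fold limit. Cidec, a lipid droplet protein, fell by 1.69 (SE 0.32, adjusted p = 0.00184) after 75 Gy at 2 weeks.

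**Figure D5:**
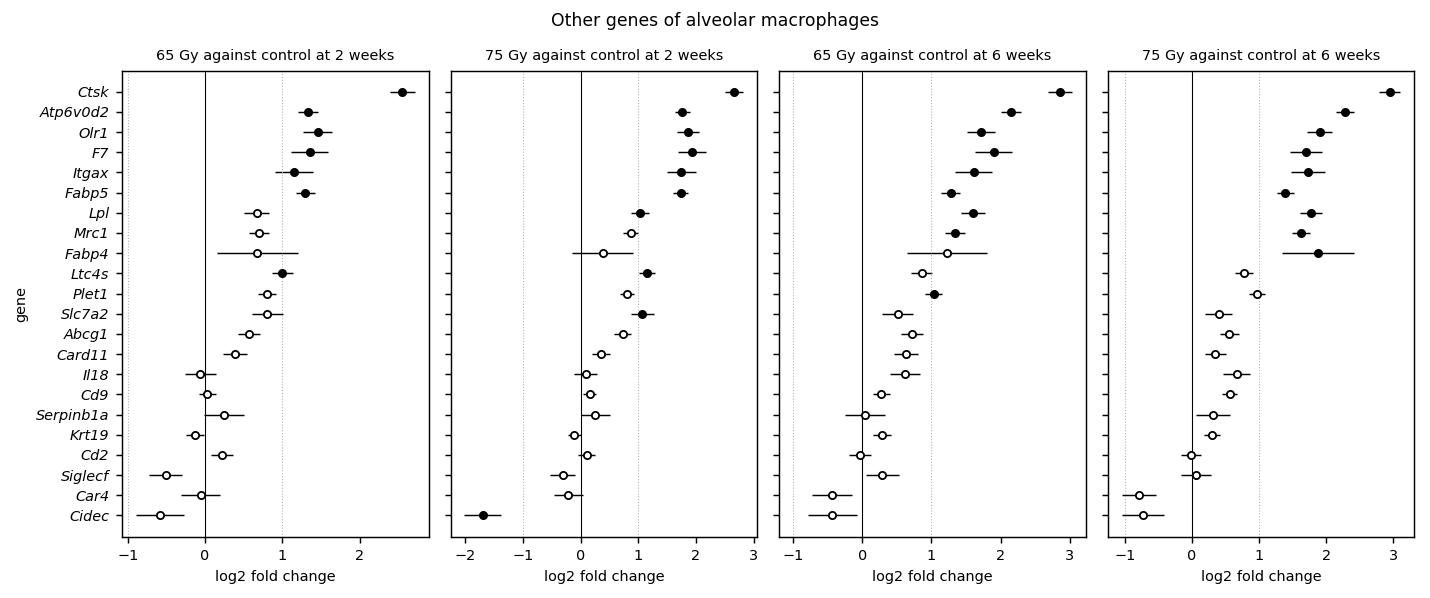
Log2 fold change of 22 other genes of alveolar macrophages against the controls of the same time, with standard errors as bars, filled points for called genes and dotted lines at -1 and 1, ordered by their mean. Ctsk lies farthest to the right in each comparison (2.55 to 2.94), and Siglecf, Car4 and Cidec lie at or below 0 at 2 weeks.

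Genes of the signals that maintain alveolar macrophages were followed with a list of 15 growth factors, receptors and transcription factors. After 75 Gy 6 were higher and 1 lower at 2 weeks, and 3 higher and 1 lower at 6 weeks. After 65 Gy 3 were higher at 2 weeks, and 3 higher and 1 lower at 6 weeks. Of all genes, 7.74% and 10.4% were called after 75 Gy at 2 and 6 weeks, and 4.35% and 5.28% after 65 Gy. Csf2, which encodes GM-CSF, rose after 75 Gy at 2 weeks by 1.20 (SE 0.24, adjusted p = 0.00264), from 1.71 to 2.21 CPM to 3.81 to 5.73 CPM, and its change at 6 weeks was 0.06 (SE 0.25). The receptor gene Csf2ra rose after 75 Gy at 2 weeks by 1.18 (SE 0.26, adjusted p = 0.00519), and its other changes were between 0.87 and 0.93. Without library 3134 the Csf2ra change was 0.65, and without library 3132 the Csf2 change was 0.99, both under the fold limit. Csf2rb, the common beta chain, rose in all 4 comparisons by 1.35 to 1.71, and Csf2rb2 by 1.61 to 2.23. Library 3134 had the highest level of all 3 receptor genes, with 172.1 CPM of Csf2ra and 336.0 CPM of Csf2rb. Klf4, a transcription factor gene of monocytes and macrophages, fell after 75 Gy at both times and after 65 Gy at 6 weeks, the last by 0.95 without library 3138, under the fold limit.

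The lipid genes controlled by PPARγ were followed with a list of 12. After 75 Gy 1 was higher and 1 lower at 2 weeks and 3 higher at 6 weeks, beside 7.74% and 10.4% of all genes called. After 65 Gy 1 was lower at 2 weeks and 2 higher at 6 weeks, beside 4.35% and 5.28% of all genes. Lpl, the lipoprotein lipase, rose at 6 weeks by 1.60 (SE 0.18, adjusted p = 5.02e-05) after 65 Gy and by 1.77 (SE 0.16, adjusted p = 5.40e-06) after 75 Gy. Plin2, the coat protein of lipid droplets, rose at 6 weeks by 1.17 (SE 0.17) after 65 Gy and 1.22 (SE 0.16) after 75 Gy. The medians of this list were between 0.11 and 0.26.

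Markers of other cells moved in the same libraries, and their part in the levels of the 8 genes was not tested. Of 8 general macrophage genes 5 rose in each comparison with controls, in which 3.47% to 7.28% of all genes rose. The sum of the 8 ranged from 4529 to 10623 CPM in the 6 controls, highest in library 3126, and from 8913 to 15065 CPM in the 11 irradiated libraries. Lyz2 alone had 3986 to 10025.5 CPM in these controls and 7652 to 13616 CPM in these irradiated libraries, so that sum is mostly its level. Of 8 genes of lipid-laden macrophages 7 rose after 75 Gy at both times, 6 after 65 Gy at 2 weeks and 7 at 6 weeks, with sums of 1650 to 2273 CPM in the controls and 5351 to 9633 CPM after irradiation. Gpnmb, a lysosomal glycoprotein gene on that list, had 13.4 to 20.7 CPM in the controls and 269.3 to 877.4 CPM after irradiation. Of 10 genes of interstitial macrophages 5 rose in each comparison, and 1 fell after 75 Gy at 6 weeks and 1 after 65 Gy at 2 weeks.

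Of 12 neutrophil genes none rose, and 6 fell at 2 weeks after either dose, 5 after 75 Gy and 3 after 65 Gy at 6 weeks, with sums of 527.4 to 921.0 CPM in the 6 controls and 174.7 to 407.7 CPM in the irradiated libraries. Among all genes, 2.07% and 3.13% fell after 75 Gy at 2 and 6 weeks, and 0.88% and 0.943% after 65 Gy. None of 6 eosinophil genes, Siglecf among them, was called in the comparisons with controls, and their sum stayed between 13.4 and 28.5 CPM in all 17 libraries. For the adipocyte list 1 of 8 genes fell after 75 Gy at 2 weeks and none was called otherwise. Sftpd, the collectin gene of surfactant, was the one called gene of 8 in alveolar type 2 cells, higher at 6 weeks after 75 Gy by 1.13 (SE 0.26, adjusted p = 0.00381) and after 65 Gy by 1.03 (SE 0.28, adjusted p = 0.0241, lost without any 1 of the 5 libraries compared), and 1 of 6 type 1 genes, Rtkn2, fell after 75 Gy at 6 weeks. The clock list had 1 lower gene of 10 at each time after 75 Gy and none after 65 Gy.

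The level over all 17 libraries of each of the 8 genes was set beside that of 14475 other genes, by Pearson's r of log2 CPM. These values describe libraries that fall into groups of dose and time, and no p is given. Csf2 was nearest to Marco (r = 0.94, Spearman's rho = 0.94), Mt1, a metallothionein, to Pparg (r = 0.95, rho = 0.91), and Ctsl, the lysosomal protease cathepsin L, to Chil3 (r = 0.92, rho = 0.93). Siglecf was nearest to Ear1 (r = 0.85, rho = 0.74), and Slc9a4 to Ear2 (r = 0.90, rho = 0.86). Xpnpep2 was nearest to Fabp1 (r = 0.95, rho = 0.90), followed by the water channel gene Aqp1 (r = 0.94) and by Calcrl (r = 0.94). Sap30l was nearest to Krt79 (r = 0.89, rho = 0.85), and Slc7a5, an amino acid transporter, to Bhlhe41 (r = 0.95, rho = 0.78).

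Among themselves the 8 genes fell into sets by the same measure. Fabp1 and Krt79 went together (r = 0.88), and Ear1 went with both (0.72 and 0.73). Ear2, Chil3 and Pparg formed another set, with r of 0.83 for Ear2 and Chil3, 0.79 for Ear2 and Pparg and 0.87 for Chil3 and Pparg. Ear1 and Ear2 were at 0.60. With the group means subtracted, so that only differences between libraries of 1 group were left, Krt79 and Ear1 (r = 0.88) and Ear2 and Chil3 (r = 0.84) were the nearest pairs, while Fabp1 and Krt79 were at 0.66 and Chil3 and Pparg at 0.58.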

How the data were processed

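RNA of 17 mouse lung libraries was sequenced from stranded mRNA libraries. According to their methods, the authors trimmed reads with Trimmomatic, aligned them with HISAT2 to GRCm38.p6 and assembled transcripts with StringTie. The deposited values are whole-number counts of reads per gene, not normalized, and how the counts were derived from StringTie is not given in the sources used here. One edgeR model (version 4.0.16, R 4.3.3) held all libraries, with a term for each group and TMM factors. Of 45777 genes, filterByExpr (smallest count 10, smallest total 15) kept 22052. Contrasts were tested by quasi-likelihood F tests, and p-values were adjusted over all genes tested after Benjamini and Hochberg. Calls needed an adjusted p of 0.05 or less and a log2 fold change of 1 or more in size. Standard errors are the log2 fold change over the square root of F. The members and the 19 other lists were chosen with earlier results of these data known. Outside the members, the rule named up to 4 genes of each list by smallest p among those called against controls, or the 2 with the highest level where none was called, and always Siglecf, Car4, Itgax, Mrc1, Bhlhe40, Ear10, Chil4, Fabp4, Fabp5, Csf2, Csf2ra and Csf2rb. Epx, Prg2, Il5ra, Ccr3, Dbp, Arntl and the Ear2 to Ear1 ratio were named outside it, after their values were seen. Likeness used log2 CPM with a prior count of 2 over genes with a mean of at least 1. Alternatives were DESeq2 1.42.0 (Wald test, no independent filtering), RLE and upper-quartile factors, a looser and a stricter filter, only the groups compared, and each library left out, and the monocyte lists without Chil3 and Ear2. No pair of libraries of a group agreed within sampling noise. The scripts were tested on simulated data. Promoters are those of RefSeq on GRCm38.p6, and all 8 genes were matched by symbol. Transcript sequences, shared windows and exon lengths are those of GENCODE. One gene of the lists is not reported here.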

Additional observations from a re-analysis of the deposited data

Results flagged for a closer look

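For 3 of the 8 genes the log2 effect of radiation at 6 weeks minus that at 2 weeks passed the limits for a call. The genes were selected on the fold changes between these same groups, so these differences are values given as a description, without a p, and not tests of the genes. For Marco the difference for 75 Gy was -2.35 (SE 0.40), and it no longer passed without library 3135 (-2.23), 3142 (-2.30) or 3143 (-2.18). The difference for 75 Gy in Bhlhe41 was -2.05 (SE 0.23), beside one of 1.93 between the controls of both times. Ear2 had a difference of 2.65 (SE 0.37) for 65 Gy, which no longer passed without any 1 of libraries 3129, 3130, 3131, 3135, 3136, 3137, 3138 and 3140, with differences between 2.58 and 2.78.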

How the results depend on the processing

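The alternatives gave 936 values of the 8 genes, each for 1 gene in 1 comparison under 1 alternative. Of these, 891 kept direction and side of the limits, 13 gained a call, 19 lost one and 13 reversed. The values share libraries and fits and are not independent checks. With DESeq2 the members called were 1 between the doses at 2 weeks (Ear2) and 2 at 6 weeks (Marco and Krt79), 2 between the controls (Bhlhe41 and Marco), and 4 in the comparison of effects over time at each dose. Of all 22052 genes, DESeq2 called 244 between the controls, and edgeR 127. For the effect over time DESeq2 called 310 genes for 75 Gy and 78 for 65 Gy, where edgeR called 56 and 3. With only the groups compared in the fit, 3 were called after 75 Gy at 2 weeks, with Fabp1 and Ear1 lost, and Fabp1 was gained after 65 Gy at 6 weeks. With 1 library left out, 1 to 2 members were called between the controls (Marco was gained without 3127), 1 to 3 for the effect of 75 Gy over time and 0 to 1 for that of 65 Gy. The share of all genes called was not taken for the fits of only the groups compared or with 1 library left out. Uncalled log2 changes that reversed ran, at 2 weeks after 75 Gy, from -0.33 to 0.36 for Ear2 and from -0.23 to 0.68 for Chil3, and after 65 Gy from -0.45 to 0.45 for Chil3. Between the controls they ran from -0.034 to 0.23 for Pparg, -0.67 to 0.0054 for Ear2 and -0.87 to 0.033 for Chil3. For Fabp1 they ran from -0.20 to 1.91 between the doses at 2 weeks and from -0.99 to 1.14 for the effect of 75 Gy over time. After 65 Gy at 6 weeks they ran from -0.65 to 0.12 for Krt79 and from -0.22 to 0.54 for Ear1. The cause was not tested. The 65 Gy group of 6 weeks had 2 libraries, and a lone library was assumed to vary like the others. No paired analysis was possible because no library number of 1 group recurs in another.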
